A study of Mus musculus with 6 samples.

Results

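A set of 10 genes of the acute phase response was followed in mouse hepatocytes with and without the pro-apoptotic gene Bim. They are the serum amyloid A genes Saa1, Saa2, Saa3 and Saa4, the orosomucoid genes Orm1 and Orm2, haptoglobin (Hp), hemopexin (Hpx), lipocalin 2 (Lcn2) and serum amyloid P component (Apcs). The members were taken from a list of named genes and not by their values, and all 10 of them were found by gene identifier among the 48353 genes of each library. Libraries were made from polyadenylated RNA of hepatocytes, the parenchymal cells of the liver, isolated by collagenase perfusion. The knock-out group (3 libraries) came from C57BL/6 mice in which a floxed Bim gene (symbol Bcl2l11) was deleted by Alb-Cre, a Cre recombinase driven by the albumin promoter of hepatocytes. The wild-type group (3 libraries) is labelled C57BL/6 and wild-type for Bim, and the labels do not say whether these mice carried the floxed allele or Cre. The protocol speaks of male mice on chow or on a high-fat diet started at 8-10 weeks of age and kept up for 14-20 weeks, and the labels do not give the diet of each sample. Whether the replicates are separate animals is not stated, and the p-values then measure only how far these samples scatter, which may be technical.

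The acute phase response is the change in plasma proteins made by the liver after infection or injury. Macrophages release interleukin 6, interleukin 1 and tumour necrosis factor, which act on hepatocytes through the transcription factors STAT3, NF-kB and C/EBP and raise the production of positive acute phase proteins, while negative acute phase proteins such as albumin decline. In the mouse, SAA1 and SAA2 are the strongly induced apolipoproteins of the response, SAA3 is also made outside the liver, and SAA4 is produced constitutively. Serum amyloid P component takes the place in mice that C-reactive protein has in humans.

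Transcripts of the 10 genes took 1.01%, 1.36% and 1.09% of the estimated reads in knock-out replicates 1, 2 and 3 and 0.823%, 1.33% and 1.02% in their wild-type counterparts. The wild-type shares include a listed 0 for Hp in replicate 1 and for Saa3 in replicate 3, which may be estimates that were not made. No difference between knock-out and wild-type hepatocytes passed the test for any member. None of the 10 (0) passed the test of limma, a linear model fitted over all genes, on log2(RPKM + 1) with Benjamini-Hochberg adjustment at 0.05, against 0.789% (87) of the 11021 genes tested. Each of those 87 was at 0 in all libraries of one group, as no member was, and of the 5538 tested genes above 0 in every library 0 passed (130 at an unadjusted p below 0.05). On RPM, the estimated reads scaled to the library total without regard to transcript length, 0 of 10 passed, against 0.844% of all genes tested. At an unadjusted p below 0.05 the count was 0 on both scales, and voom, the other method run, also called 0 of the members that were above 0 in every library. Leaving out any 1 library called none of these 8 either (0).

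The libraries held 25335211 to 31130519 estimated reads. Bcl2l11 had 0 reads in each knock-out library and 0, 680 and 478 in wild-type replicates 1, 2 and 3. Wild-type replicate 1 thus cannot be told from knock-out by this gene. A listed 0 may be an estimate that was not made, as described for Hp below, so these zeros alone do not show the state of the gene. Hepatocyte markers were present in all 6 libraries: 8 or 9 of 10 were above 0, with Tat at 0 throughout, and their RPKM, from the lowest library to the highest, summed to 22935, 28797 and 36273 in knock-out against 19534, 19947 and 41758 in wild-type libraries. Wild-type replicate 1 stood apart in macrophage genes, with all 12 of 12 markers above 0 and a sum of 4524 RPKM, against 6 to 8 markers and 78.6 to 140 RPKM in the other 5 libraries. Of 12 neutrophil markers, 10 were at 0 in every library, and the sum reached 13.6 RPKM in wild-type replicate 1 and 0 elsewhere. Among the 10 were S100a8, S100a9, Ly6g and Mpo, at loci of 2, 2, 2 and 6 transcripts, whose zeros may be estimates that were not made. Elane, Ngp, Camp and Retnlg, also among the 10, have 1 transcript at the locus. Endothelial markers summed to at most 43.7 RPKM, in wild-type replicate 1. Biliary markers summed to between 9.09 and 509.9 RPKM, with the highest sum in knock-out replicate 2. That sum followed Spp1 alone, at 112 to 504 RPKM but listed at 0 in knock-out replicate 1. With 8 transcripts at the locus, this 0 may be an estimate that was not made. Sox9 stayed between 5.68 and 10.8 RPKM, and Krt19, Krt7 and Cftr were at 0 in every library. Their loci have 3, 6 and 7 transcripts, and that of Tat has 2, so these zeros too may be estimates that were not made. In such bulk samples fewer cells of a type and less RNA per cell cannot be told apart.

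The promoters are shown first because most members share one short motif there. The table of RefSeq promoters (GRCm38.p6) held 8 of the members, and the 250 bases before the RefSeq transcription start were searched. In Saa2, Saa3, Hpx and Lcn2 this start lies inside an annotated transcript measured here, so the windows run into it. The Lcn2 window, for one, begins at 32387740, and ENSMUST00000050785 reaches to 32387797. Distances given below are from the RefSeq start. A C/EBP motif written TTGCNNAA, on either strand, was present in 7 of the 8, against 9.56% of the 32851 promoters of the table. The exception was Apcs, the only one of the 8 with the STAT motif TTCNNNGAA (either strand, 7.02% of all promoters). The NF-kB motif GGNNTTTCC (either strand, 4.93% of all promoters) was present in Saa3 alone, and TATAAA on the strand of the gene (7.59% of all promoters) in Orm2 alone. No match in these promoters overlapped one of another motif. A match of letters is a description and not a binding site. Saa1 and Saa2 are shown because their promoters are nearly the same, and Saa3 for its pair of motifs. Saa4 is shown as the low member of the family with 2 matches, and Lcn2 as the member with the highest mean RPKM. Each is given 5′ to 3′ with the matches in capitals.
Saa1 (chr7:46742981-46743230, minus strand): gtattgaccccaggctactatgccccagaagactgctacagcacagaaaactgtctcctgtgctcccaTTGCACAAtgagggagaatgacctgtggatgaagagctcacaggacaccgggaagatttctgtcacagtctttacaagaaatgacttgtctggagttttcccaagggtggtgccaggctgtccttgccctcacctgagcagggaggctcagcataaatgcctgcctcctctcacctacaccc
Saa2 (chr7:46751583-46751832, plus strand): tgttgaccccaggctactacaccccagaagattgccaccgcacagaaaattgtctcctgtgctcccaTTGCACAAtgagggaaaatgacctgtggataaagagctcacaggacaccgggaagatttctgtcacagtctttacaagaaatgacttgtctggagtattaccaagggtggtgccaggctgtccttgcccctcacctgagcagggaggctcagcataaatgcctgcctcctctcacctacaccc
Saa3 (chr7:46715677-46715926, minus strand): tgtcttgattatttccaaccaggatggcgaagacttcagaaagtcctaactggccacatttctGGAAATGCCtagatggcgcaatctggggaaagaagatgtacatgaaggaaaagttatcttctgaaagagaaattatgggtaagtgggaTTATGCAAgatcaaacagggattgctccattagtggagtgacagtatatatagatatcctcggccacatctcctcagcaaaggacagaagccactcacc
Saa4 (chr7:46732604-46732853, minus strand): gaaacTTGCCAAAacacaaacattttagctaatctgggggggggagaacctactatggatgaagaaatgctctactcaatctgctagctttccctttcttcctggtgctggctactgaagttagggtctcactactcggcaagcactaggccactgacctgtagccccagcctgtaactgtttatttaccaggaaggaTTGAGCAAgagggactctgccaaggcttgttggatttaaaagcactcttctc
Lcn2 (chr2:32387740-32387989, minus strand): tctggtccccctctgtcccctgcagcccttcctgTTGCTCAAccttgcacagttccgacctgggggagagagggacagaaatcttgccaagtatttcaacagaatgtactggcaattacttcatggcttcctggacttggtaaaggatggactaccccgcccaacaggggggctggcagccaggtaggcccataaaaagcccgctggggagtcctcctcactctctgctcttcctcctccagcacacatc
The promoters of Saa1 and Saa2 were identical at 238 of 249 aligned bases (95.6%), with the motif starting 182 and 183 bases before the respective start. In Lcn2 it began 216 bases upstream, in Orm2 120 and in Hpx 200. Orm3, an orosomucoid gene that is not a member, has a promoter 89.0% identical to that of Orm2, with a C/EBP match (TTGCGCAA in Orm2, TTGCACAA in Orm3) and TATAAA at nearly the same places. The members that carry the motif do not share a level, since they include the highest (Lcn2) and the lowest (Saa4) in mean RPKM.

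Per transcript length the members fell into a steep order, which did not change from library to library. Mean RPKM over the 6 libraries, given with the SD, ran from Lcn2 (6608 ± 1478) and Hpx (3965 ± 959) to Saa1 (1726 ± 265) and Saa2 (1284 ± 323), then Orm1 (520 ± 73.9), Apcs (95.9 ± 21.9), Orm2 (60.5 ± 13.9) and Saa4 (7.56 ± 2.36). Each of the 7 neighbouring pairs in this order of 8 genes had the same sign in 6 of 6 libraries. In RPM, however, Hpx was above Lcn2 in knock-out replicate 1 (4133 against 3484). The place of Lcn2 also rests on the sum over its transcripts. Of its coding transcripts, ENSMUST00000050785 alone had 774, 1374 and 2195 RPKM in knock-out against 4568, 1347 and 6631 in wild-type replicates 1 to 3. The ranges over libraries overlapped for Lcn2 and Hpx (lowest Lcn2 value 4514, highest Hpx value 5562) and for Saa1 and Saa2 (1333 and 1843), and were apart for the 5 other pairs. Lcn2 ranked 15th, Hpx 21st and Saa1 53rd among all genes by mean RPKM, whereas Saa4 was at place 7209. Hp and Saa3 are left out of the order because each was listed at 0 in 1 library.

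**Figure D1:**
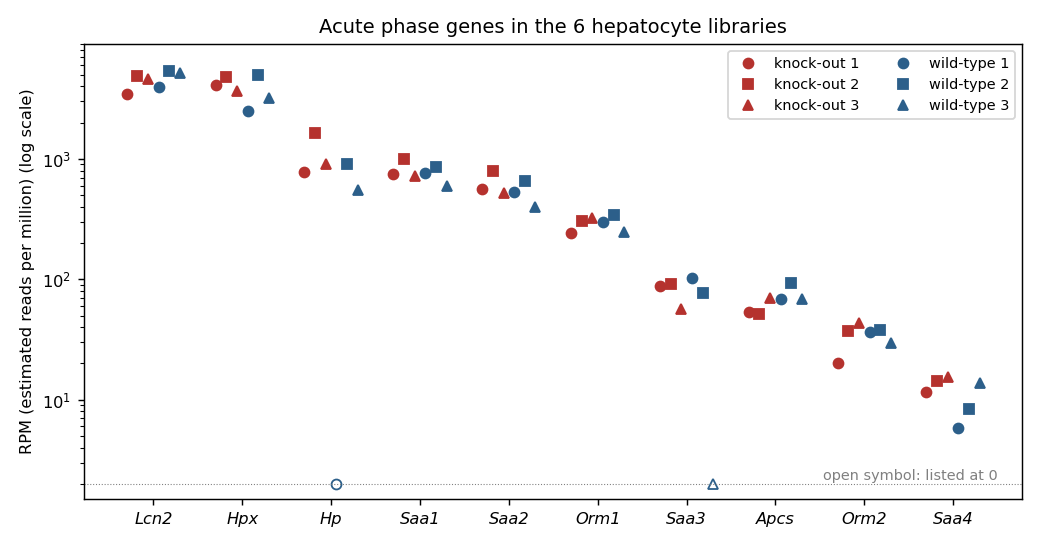
RPM (estimated reads scaled to the library total) of the 10 acute phase genes (log axis, genes ordered by their median) in the 3 knock-out (red) and 3 wild-type (blue) libraries, 1 symbol per library and open symbols for values listed at 0. Red and blue overlap for every gene, and the genes cover a far wider range, from Saa4 to Lcn2, than the libraries of any one gene above 0; Hp is at 0 in wild-type replicate 1 and Saa3 in wild-type replicate 3.

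The serum amyloid A genes lie together on chromosome 7 (GRCm38). Saa3 (ENSMUSG00000040026) spans 46711998 to 46715700, Saa4 (ENSMUSG00000040017) 46727998 to 46732603 and Saa1 (ENSMUSG00000074115) 46740497 to 46742980, all on the minus strand, and Saa2 (ENSMUSG00000057465) spans 46751790 to 46754313 on the plus strand. Saa1 and Saa2 each have a coding transcript of 4 exons with 366 coding bases, of which 348 are identical (95.1%). The coding sequence of Saa1 was 79.1% identical to that of Saa3 and 69.6% to that of Saa4 over the aligned bases. Reads from a stretch that both genes carry cannot be placed on one of them, and the longest such run in the coding sequence is 73 bases, shown here in the direction of transcription.
Saa1 (chr7:46740715-46740787, minus strand) and Saa2 (chr7:46754026-46754098, plus strand): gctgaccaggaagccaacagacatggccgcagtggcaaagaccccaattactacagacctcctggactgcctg
The sources used here do not give how reads were divided between such copies, so the separate values of Saa1 and Saa2 are uncertain and their sum is given as well.

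Saa1, an apolipoprotein of high-density lipoprotein in the acute phase, had 1729, 2042 and 1567 RPKM in knock-out replicates 1 to 3 and 1696, 1990 and 1333 in wild-type replicates 1 to 3. The groups overlapped nearly throughout, and the highest library of each was its replicate 2. On log2(RPKM + 1) knock-out minus wild-type was 0.10 (SE 0.19, 95% interval -0.39 to 0.59), with a limma adjusted p of 0.984. Saa2, its close copy, had 1198, 1843 and 1134 RPKM in knock-out against 1188, 1439 and 902 in wild-type replicates 1 to 3. Here too replicate 2 was the high library of each group and the ranges overlapped. The difference of Saa2 was 0.23 (SE 0.27, interval -0.47 to 0.93), with a limma adjusted p of 0.943. The 2 genes moved together from library to library: Saa2 reads were 67.3% to 80.3% of Saa1 reads in the 6 libraries. Summed, they came to 1314, 1796 and 1247 RPM in knock-out against 1300, 1513 and 992 in wild-type libraries. The means of this sum were 1452 ± 300 (SD, n = 3) and 1268 ± 262 (SD, n = 3), and the exact two-sided permutation test gave p = 0.5, where 3 against 3 libraries cannot give less than 0.1.

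Saa3, the member of the family that macrophages also make, shows how far a value can rest on the transcript to which its reads were assigned. In knock-out replicates 1 to 3 it had 2464, 2528 and 1431 estimated reads, and in wild-type replicates 1 to 3 it had 2892, 2418 and 0. The library with the most Saa3 reads was thus wild-type replicate 1, the one high in macrophage markers, and the one at 0 was wild-type replicate 3. In RPKM Saa3 had 219, 230 and 33.8 in knock-out against 62.7, 199 and 0 in wild-type libraries. The low RPKM of knock-out replicate 3 and wild-type replicate 1 go with reads assigned wholly to ENSMUST00000210913, an annotated coding transcript of 2 exons and 2200 bases, whereas the 3 other libraries above 0 had theirs on ENSMUST00000006956, of 4 exons and 555 bases. With the 0 taken as missing, so that wild-type has 2 libraries, limma gave a difference of 0.10 with an interval of -2.63 to 2.83 for Saa3. The data therefore set no useful limit on a difference of Saa3 in RPKM.

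Saa4, the constitutive member, was the lowest of the 10, with estimated reads of 330, 392 and 390 in the knock-out and 166, 260 and 386 in the wild-type replicates. In RPKM these were 7.79, 9.45 and 9.68 against 3.78, 5.67 and 8.98. Wild-type replicates 1 and 2 lay below all knock-out libraries, and wild-type replicate 3 lay among them. The difference of Saa4 was the most positive among the 8 members above 0 in every library, 0.54 (SE 0.32, interval -0.29 to 1.37), with a limma adjusted p of 0.941. Without wild-type replicate 1, its lowest library, the difference of Saa4 was 0.28. The locus has 1 annotated transcript, so this value does not depend on a division between transcripts.

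The orosomucoids are lipocalins of plasma that bind basic drugs and dampen inflammation. Their genes lie side by side on the plus strand of chromosome 4, Orm1 (ENSMUSG00000039196) from 63344560 to 63348163 and Orm2 (ENSMUSG00000061540) from 63362449 to 63365878, with Orm3 between them. Orm1 had 433, 552 and 544 RPKM in knock-out against 524, 628 and 440 in wild-type replicates 1 to 3. The 2 groups covered almost the same range. The difference of Orm1 was -0.05 (SE 0.18, interval -0.51 to 0.41), with a limma adjusted p of 1.0. Orm2 had 36.2, 67.3 and 73.7 RPKM in knock-out against 63.4, 69.9 and 52.7 in wild-type libraries, so knock-out replicate 1 was low and the others ran through each other. The difference of Orm2 was -0.12 (SE 0.32, interval -0.94 to 0.69), with a limma adjusted p of 1.0. Without knock-out replicate 1 it was 0.19, so its sign rests on that library.

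Orm2 reads stood at 8.38% to 13.5% of Orm1 reads, and those of Orm3 at 0.659% to 2.27%. The transcripts of Orm1 and Orm2 are 91.0% identical over their 775 bases, and 141 bases is the longest run they share. Summed over Orm1, Orm2 and Orm3, the orosomucoids had 263, 347 and 371 RPM in knock-out against 339, 383 and 283 in wild-type libraries. The means were 327 ± 56.8 (SD, n = 3) and 335 ± 50.0 (SD, n = 3), and the exact two-sided permutation test gave p = 0.8.

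Hp and Hpx encode the plasma scavengers of free haemoglobin and of haem. Hp (ENSMUSG00000031722, chromosome 8 from 109575128 to 109579172, minus strand) had estimated reads of 21800, 45001 and 22817 in the knock-out and of 0, 28472 and 15616 in the wild-type replicates. A haptoglobin value of 0 in wild-type replicate 1 stands beside 703495 reads of Alb in the same library. Such zeros were common in the files where several transcripts share a locus: among loci whose median was over 100 reads, 18.0% of library values were exactly 0 where the locus had 2 or more transcripts and 0.0156% where it had 1. Hp has 3 transcripts at its locus, and its 0 may be an estimate that was not made, so no mean or fold that includes it is given. In RPKM the libraries above 0 had 971, 2308 and 881 in knock-out against 967 and 565 in wild-type, with knock-out replicate 2 far above the others. In knock-out replicates 1 and 2 part of the Hp reads (26.7% and 46.1%) was assigned to ENSMUST00000212018, a non-coding processed transcript of 749 bases, and in the other libraries above 0 all went to the coding ENSMUST00000074898 of 1345 bases. With the 0 taken as missing, which leaves 2 wild-type libraries, limma gave a difference of 0.76 (interval -0.60 to 2.13) for Hp, and it did not pass.

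Hpx (ENSMUSG00000030895, chromosome 7 from 105591613 to 105600137, minus strand) had 3849, 4485 and 3187 RPKM in knock-out against 3805, 5562 and 2902 in wild-type replicates 1 to 3. The wild-type libraries spanned the knock-out range on both sides. The difference of Hpx was -0.05 (SE 0.28, interval -0.78 to 0.67) on log2(RPKM + 1), with a limma adjusted p of 1.0, and it was 0.29 (interval -0.43 to 1.02) on log2(RPM + 1), so its sign turned with the scale. In wild-type replicate 1, 45.4% of the Hpx reads were assigned to ENSMUST00000210531, a coding transcript of 592 bases, which counts each read for more RPKM than the 1499 bases of ENSMUST00000033185, to which 87.6% to 100% of the reads went in the other libraries. In RPM that library was the lowest for Hpx, at 2495 against 3175 to 4928.

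Lcn2 (ENSMUSG00000026822, chromosome 2 from 32384633 to 32388252, minus strand) encodes a lipocalin that binds bacterial siderophores and withholds iron. It had 4514, 7788 and 5577 RPKM in knock-out against 5892, 8049 and 7830 in wild-type replicates 1 to 3. Knock-out replicates 1 and 3 lay below all wild-type ones, and replicate 2 lay between wild-type replicates 1 and 2. The difference of Lcn2 was -0.31 (SE 0.25, interval -0.95 to 0.33) on log2(RPKM + 1), with a limma adjusted p of 0.941, and -0.15 (interval -0.64 to 0.33) on log2(RPM + 1). Reads of Lcn2 were spread over 5 of its 6 annotated transcripts, and the spread changed from library to library. The share on ENSMUST00000050785, a coding transcript, was 14.6%, 18.5% and 32.9% in knock-out against 79.0%, 16.1% and 86.5% in wild-type replicates 1 to 3. In every library some of the rest went to ENSMUST00000136509, a retained-intron model. ENSMUST00000147219, a processed transcript without a coding sequence, had reads in all libraries but wild-type replicates 1 and 3, where it was at 0. Another retained-intron model, ENSMUST00000144569, took 27.7% in knock-out replicate 2 and 23.8% in wild-type replicate 2. In wild-type replicate 1, 9.79% went to ENSMUST00000192241, also coding. In the share on ENSMUST00000050785 wild-type replicate 2 resembled the knock-out libraries, so the groups overlapped. Taking only the transcript with the highest value, the difference of Lcn2 was -1.38 against -0.31 for the sum, and it did not pass (limma).

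**Figure D2:**
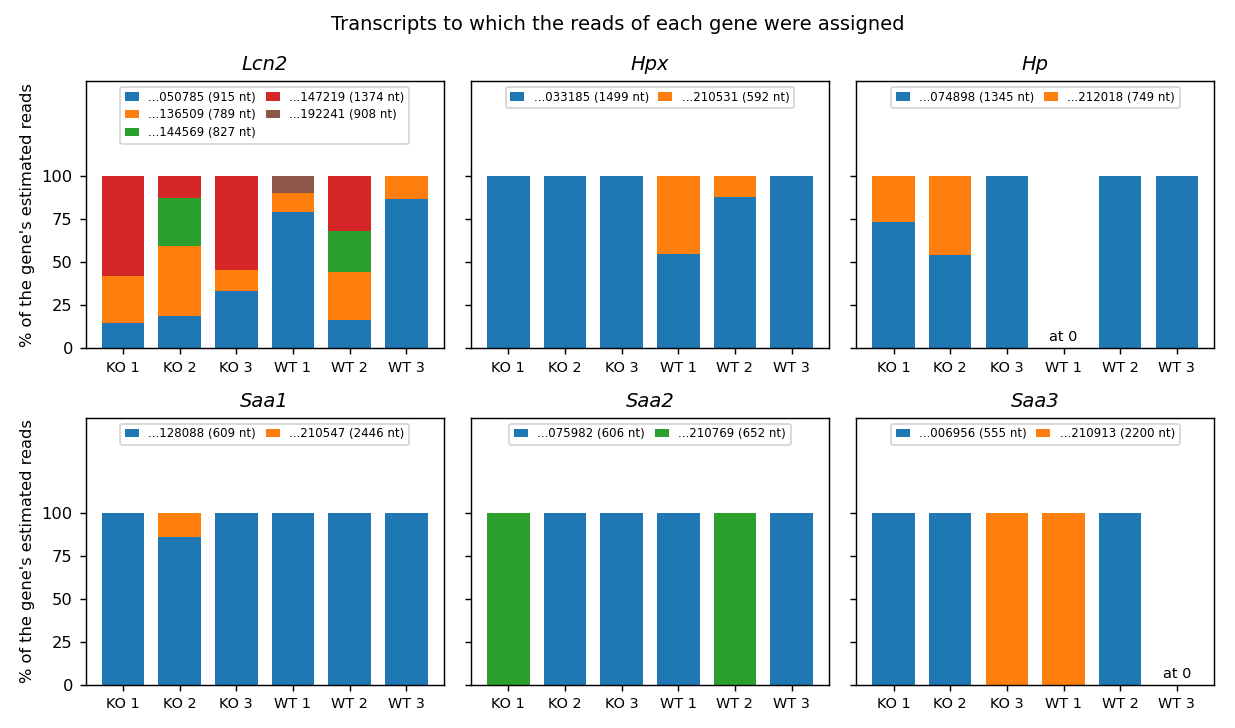
Share of each gene's estimated reads (y axis, percent) assigned to each annotated transcript in the 6 libraries (KO, knock-out; WT, wild-type; transcripts by the end of their identifier and their length), for the 6 members with more than 1 transcript. Lcn2 reads were divided differently in each library, Saa2 and Saa3 reads went wholly to one or the other transcript, and Hp in WT 1 and Saa3 in WT 3 were listed at 0.

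Saa2 showed the same all-or-none division. All of its reads went to ENSMUST00000210769 (652 bases) in knock-out replicate 1 and wild-type replicate 2 and to ENSMUST00000075982 (606 bases) in the other libraries. Since these lengths are close, the RPKM of Saa2 was little affected. Saa1 reads went to the coding ENSMUST00000128088 except in knock-out replicate 2, where 14.1% were placed on a retained-intron model of 2446 bases.

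Apcs (ENSMUSG00000026542, chromosome 1 from 172893961 to 172895041, minus strand), a pentraxin that binds to amyloid deposits and cell debris, had 77.5, 74.4 and 95.7 RPKM in knock-out against 95.9, 135.8 and 96.3 in wild-type replicates 1 to 3. It was the only member whose groups did not overlap in RPKM (1 of 10, against 5.46% of the genes tested), by a gap of 95.7 to 95.9. In RPM the groups overlapped, with 70.6 in knock-out replicate 3 above 69.0 and 68.3 in wild-type replicates 1 and 3. The difference of Apcs was -0.39 (SE 0.20, interval -0.90 to 0.12), the most negative among the 8 members above 0 in every library, with a limma adjusted p of 0.941. The locus has 1 transcript of 2 exons.

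Among the 8 members without a 0, the difference in RPKM was positive for 3 and negative for 5, and 4 and 4 in RPM. Their median difference was -0.05 in RPKM and 0.06 in RPM, beside medians of -0.01 and 4.3e-05 over all genes tested. The 95% intervals of 7 of the 8 in RPKM, and of 6 in RPM, lay inside a change of 2-fold either way. In RPKM a 2-fold change either way is thus outside the intervals of Saa1, Saa2, Orm1, Orm2, Hpx, Lcn2 and Apcs, while that of Saa4 includes a 2-fold higher but not a 2-fold lower level in knock-out. In RPM the interval of Hpx also reached past 2-fold higher (1.02 in log2). All of these intervals are of values summed over the transcripts of a gene. With the highest transcript only, the log2 difference in RPKM was -1.38 for Lcn2 and 0.64 for Hpx, so their limits rest on that sum. Changes inside these intervals were not detectable with 3 libraries a group. The intervals are for single genes and are not adjusted for the number of genes tested. A change outside them could therefore fail the adjusted test as well.

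**Figure D3:**
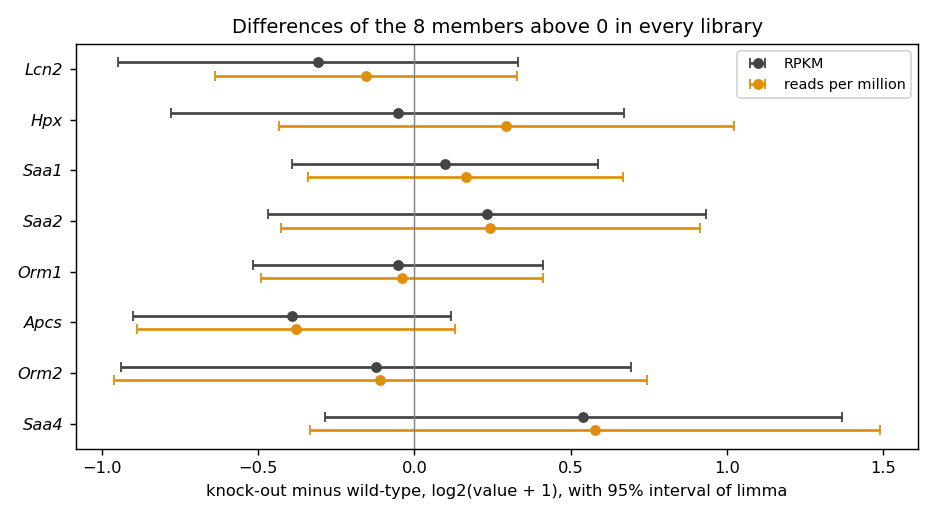
Knock-out minus wild-type difference of the 8 members above 0 in all 6 libraries (x axis, log2(value + 1); points are the limma estimate from 3 against 3 libraries, bars its 95% interval), in RPKM (grey) and in RPM (orange). Every interval contains 0, from Saa4 (0.54) to Apcs (-0.39) in RPKM, and the points of Hpx lie on opposite sides of 0 on the 2 scales.

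The library high in macrophage genes was not high in most acute phase genes. Wild-type replicate 1 had 1404 RPKM of Il1b and 568 of Tnf, the cytokines that start the response, against at most 26.5 and 22.4 in the other 5 libraries. In RPM 6 of the 10 members lay within the range of the other 5 libraries there: Saa1 (766), Saa2 (534), Orm1 (301), Orm2 (36.4), Lcn2 (3924) and Apcs (69.0). Saa3 was above that range (102 against at most 91.4), and Saa4 and Hpx were below it. Hp, listed at 0 there, was not read as a low level. Albumin was at 24895 RPM in this library, and at 22306 to 50868 in the others. Of the other hepatocyte markers, Ttr (219), Apoa1 (499), Apob (3915), Cps1 (12.7) and Ass1 (344) were lowest there in RPM. Apoh (420), Serpina1a (989) and Hnf4a (67.4, and listed at 0 in knock-out replicate 3) lay within the range of the others. Tat was at 0 throughout. The summed RPKM of the hepatocyte markers was also lowest in this library (19534, against 19947 to 41758). The part of macrophages in the differences between the groups was not tested. Without wild-type replicate 1 the differences were 0.12 for Saa1, 0.25 for Saa2, 0.28 for Saa4 and -0.05 for Orm1. They were -0.10 for Orm2, -0.08 for Hpx, -0.45 for Lcn2 and -0.47 for Apcs, and none of these differences passed.

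**Figure D4:**
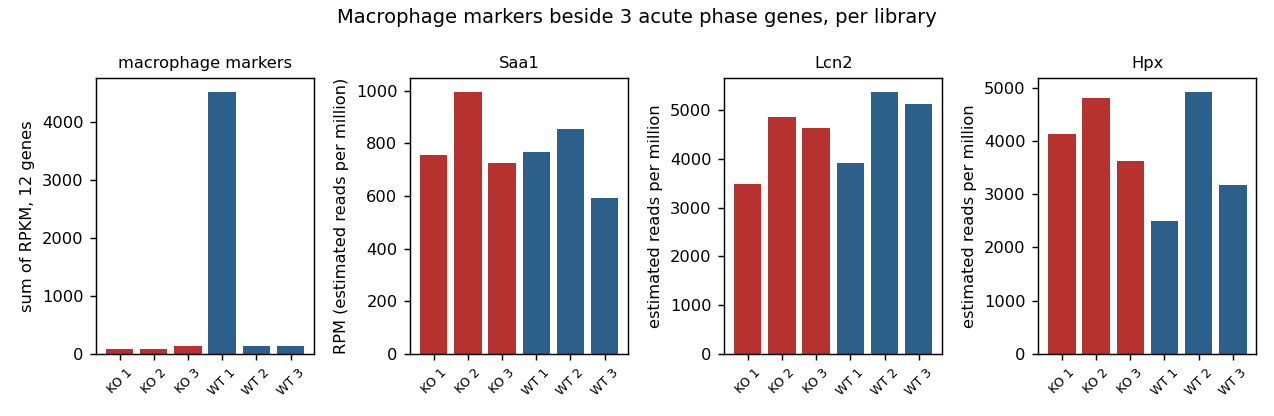
Summed RPKM of 12 macrophage markers (left) and RPM of Saa1, Lcn2 and Hpx in each knock-out (KO, red) and wild-type (WT, blue) library; bars are single libraries and start at 0. The marker sum is 4524 in WT 1 and at most 140 elsewhere, while Saa1 and Lcn2 in WT 1 lie among the other libraries and Hpx is lowest there.

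The route that switches these genes on was examined through 39 genes of cytokine signalling, of which 31 were tested and 0 passed the limma test. The 13 of them that were tested and above 0 in every library had a median difference of 0.01 in RPKM, with 7 positive and 6 negative, and of 0.02 in RPM. Il6, Osm, Il22 and Il11, which encode cytokines that signal through STAT3 and are named after their values were seen, were listed at 0 in all 6 libraries. The loci of Il6, Osm and Il11 have 4, 2 and 2 transcripts, so their zeros may be estimates that were not made. The locus of Il22 has 1 transcript. Ptpn11, the SHP2 phosphatase below the interleukin 6 receptor, had 106, 102 and 110 RPKM in knock-out against 93.6, 110.5 and 110.5 in wild-type replicates 1 to 3. Nfkb2, an NF-kB subunit, had 119, 109 and 102 against 128, 124 and 102. The genes of that route named next were likewise picked by role after their values were seen. Cebpb, whose product binds C/EBP motifs, had 17.6, 23.9 and 15.6 RPKM in knock-out against 30.6, 13.7 and 15.2 in wild-type libraries, highest in wild-type replicate 1. Socs3, a feedback inhibitor that STAT3 induces, was at 49.5 RPKM in wild-type replicate 1 and listed at 0 in the other 5. Its locus has 3 transcripts, so these zeros may be estimates that were not made. Stat3 itself, with 14 transcripts at its locus, was at 31.5 RPKM in knock-out replicate 2 and listed at 0 elsewhere, which leaves its level unknown.

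Other positive acute phase proteins gave no call either. Of 39 genes, 34 were tested and 0 passed (limma), and the 26 above 0 in every library had a median difference of 0.14 in RPKM, with 19 positive and 7 negative, and of 0.19 in RPM. Complement C3 had 3450, 6515 and 1670 RPKM in knock-out against 2523, 4265 and 2756 in wild-type replicates 1 to 3. Ceruloplasmin (Cp), the copper carrier of plasma, had 863, 1138 and 758 against 388, 1044 and 795, lowest in wild-type replicate 1. Serpina1a, one of several close copies of the antitrypsin gene between which reads may have been split, had 1069, 1330 and 915 against 981, 1683 and 961, so that both groups again covered one range. Serpina3m, named after its values were seen, was the only gene of this list above 0 in every library with an unadjusted limma p below 0.05. Of all 11021 genes tested, 208 had such a p. Serpina3m had 221, 520 and 237 RPKM in knock-out against 768, 685 and 1080 in wild-type libraries, a difference of -1.46 (SE 0.40) with an adjusted p of 0.941 in limma. It belongs to a cluster of closely related serpin genes, between which reads may have been split.

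Negative acute phase proteins, which decline when the response is on, were 14 genes, of which 13 were tested and 0 passed (limma). The 10 above 0 in every library had a median difference of 0.28 in RPKM, with 9 positive and 1 negative, and of 0.34 in RPM. Alb had 23414, 31593 and 18937 RPKM in knock-out against 16508, 35550 and 15024 in wild-type replicates 1 to 3. Gc, the vitamin D binding protein, had 4699, 7398 and 3552 against 1761, 4147 and 3375. Apoa2, an apolipoprotein of high-density lipoprotein, had 2717, 3620 and 2736 RPKM in knock-out against 2439, 2103 and 2379 in wild-type libraries, with no overlap, a difference of 0.38 (SE 0.15) and an adjusted p of 0.941 in limma. It was the only one of the 10 with an unadjusted limma p below 0.05, against 208 of all 11021 genes tested. Of all genes tested, 5.46% had groups that did not overlap in RPKM. The summed RPKM of these 14 genes was lowest in wild-type replicate 1 (28690, against 30475 to 63344 in the other 5 libraries), and most of that sum was Alb (16508). The part of that library in the median was not tested.

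Receptors and enzymes that take up or process the ligands of haptoglobin, hemopexin, lipocalin 2 and serum amyloid A were 14 genes, of which 9 were tested and 0 passed (limma). The 4 above 0 in every library had a median difference of -0.20 in RPKM, with 1 positive and 3 negative, and of -0.01 in RPM. Hmox1, the haem oxygenase that breaks down the haem hemopexin delivers, had 641, 442 and 460 RPKM in knock-out against 1274, 541 and 508 in wild-type replicates 1 to 3, highest in the library with the macrophage markers. Lrp1, the hemopexin receptor, had 296, 136 and 0 in knock-out against 49.8, 131 and 346 in wild-type libraries. With 10 transcripts at its locus, that 0 may be an estimate that was not made. Tlr2, a receptor that serum amyloid A can engage, had 60.3, 34.6 and 30.5 against 50.9, 54.4 and 27.8, with both groups over one range.

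The mean level of the members was highest in replicate 2 of either group. Their mean of log2(RPKM + 1), over the 8 above 0 in every library, was 8.56, 8.97 and 8.77 in knock-out against 8.66, 9.02 and 8.64 in wild-type replicates 1 to 3. Of 5513 genes compared over the 6 libraries, the 5 most like this mean were Pard3 (Pearson r 0.989), Med16 (0.979), Fgd1 (0.977), Hrg (0.959) and Cnot1 (0.951), and 17 had r above 0.9. Hrg, the histidine-rich glycoprotein of plasma, had 11.6, 20.8 and 15.1 RPKM in knock-out against 11.0, 21.9 and 10.2 in wild-type libraries. Among these 8, Saa4 had the widest ratio of highest to lowest library (2.56), and it had other neighbours: Insr (0.994), Fabp2 (0.992), Zfp687 (0.989), Acad12 (0.989) and Ift27 (0.987), with 189 genes above 0.9. These correlations rest on 6 libraries that share their depth and make-up, and they are given as descriptions without a test.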

How the data were processed

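Values are those of 6 deposited annotation files, 1 per hepatocyte library, in which the authors give each of 118492 transcripts estimated reads (counts that need not be whole) and RPKM, per the file headers and attributes. The submitters' processing notes name TopHat2 (version 2) and the build GRCm38 (mm10), and the sources used here do not name the tool that made the estimates or say whether it used strand. Both values were summed per gene, and RPM (estimated reads scaled to each library's total) were computed. Of the 48353 genes, 47993 had a symbol in the reference table. The 11021 genes whose mean RPKM was 1 or more were tested on log2(RPKM + 1), which understates the change of low genes, with limma 3.58.1 in R 4.3.3 (two-sided, mean-variance trend, no covariate, all 6 libraries), with Benjamini-Hochberg adjusted p below 0.05 as the threshold. Summed copies were compared by exact permutation (scipy 1.17.1). The fit was tested on simulated data with 200 genes changed. Sequences are from RefSeq and GENCODE M21 transcripts (GRCm38), aligned with biopython 1.88.

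The members, gene lists and alternatives were chosen with earlier results of these data known. All members were named, with, from each other list, the genes that passed and up to 6 of the highest RPKM, some of them in the text. Genes outside this rule are cell type markers, Bcl2l11 and Orm3, or are said to be named after their values were seen. Alternatives were the pseudocount (0.1), the filter (none, or 5), the threshold (0.1), quantile normalization, scaling to the same median, RPM and voom. The others were no mean-variance trend, the highest transcript, the treatment of zeros, the replicate block and each left-out library. Loci with 1 transcript alone, and RPM of genes above 0, were chosen after seeing the data.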

Additional observations from a re-analysis of the deposited data

How the results depend on the processing

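No member was called under any of the 21 alternatives run (0 of the members above 0 in every library), with the replicate block among them (0). The 87 calls over all genes, each at 0 in every library of one group, became 0 with genes above 0 in all 6 libraries only, 0 with zeros at loci of 2 or more transcripts taken as missing, 0 with the replicate block, 0 with loci of 1 transcript only and 0 with RPM of genes above 0. In the first of these settings 130 of 5538 genes had an unadjusted p below 0.05. Leaving out 1 library in turn gave 182 to 207 calls. Same-numbered libraries did not deviate together (r of -0.158, -0.0488 and -0.0053 across genes), so the numbers were not taken to pair them. Leaving out 1 library gave log2 differences of -0.055 to 0.23 for Saa1, -0.18 to 0.078 for Orm1, -0.31 to 0.19 for Orm2, -0.27 to 0.19 for Hpx and -0.14 to 0.10 for the summed orosomucoids, so their signs turned. Hpx also turned to 0.29 in RPM (with all genes or with those above 0), 0.28 with voom and 0.64 with the highest transcript only. Saa2, Saa4, Lcn2 and Apcs kept their sign under every alternative run, but not their size. Leaving out 1 library, Saa2 ranged from 0.013 (without knock-out replicate 2; 0.054 without wild-type replicate 3) to 0.39 (without wild-type replicate 2), Saa4 from 0.28 (without wild-type replicate 1) to 0.81 (without wild-type replicate 3), Lcn2 from -0.52 (without knock-out replicate 2) to -0.13 (without knock-out replicate 1) and Apcs from -0.50 (without knock-out replicate 3) to -0.23 (without wild-type replicate 2). The 3 libraries a group and the division of reads between transcripts and copies limit these values, and genes at 0 have no usable difference.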
